A study of Danio rerio and Xiphophorus maculatus with 12 samples.

Results

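The lysyl oxidases are the enzymes that cross-link collagen and elastin, and this account follows their transcripts through cryoinjury of the heart ventricle in zebrafish and platyfish. The family was taken as 9 gene symbols, namely loxa, loxb, loxl1, loxl2a, loxl2b, loxl3a, loxl3b, loxl4 and loxl5b, matched without regard to case to the symbols in each species' gene table. In zebrafish 8 of the 9 symbols had a row, giving 9 genes out of 32520, because both loxl4 and LOXL4 occur. In platyfish 7 of the 9 symbols had a row, giving 8 genes out of 24209, again with both loxl4 and LOXL4. No row of either table carried the symbol loxb, and no platyfish row carried loxl3a. Outside the 9 symbols, platyfish also had a row named LOX (chromosome 12), without a count in any library.

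The 4 groups of wild-type adult fish, of 3 libraries each, were profiled by bulk RNA sequencing: zebrafish (Danio rerio) 7 days after ventricular cryoinjury and zebrafish without injury, and platyfish (Xiphophorus maculatus, a livebearing teleost) 7 days after cryoinjury and platyfish without injury. In cryoinjury a deeply cooled probe destroys a patch of the ventricle. The uninjured fish had not been manipulated, so that no group controls for the surgery without freezing. Each library was made from a pool of 8 whole ventricles without atrium and bulbus arteriosus, so that n = 3 pools per group throughout, and p-values measure the spread between pools. A higher level in such bulk tissue can come from more cells of a type or from more RNA per cell, and these cannot be told apart.

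Lysyl oxidases are secreted, copper-dependent amine oxidases. They oxidise lysine and hydroxylysine side chains of collagen and elastin to aldehydes, which then condense with neighbouring chains into covalent cross-links that make a matrix stiff and hard to degrade. Lysyl oxidase itself and its nearest relative are made as proenzymes that are cleaved outside the cell, whereas the members of the Loxl2, Loxl3 and Loxl4 class carry scavenger receptor cysteine-rich domains in front of the catalytic domain. In mammals, cross-linking by this family is a feature of the scar that forms after myocardial infarction.

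Library totals ranged from 20735097 to 24575554 counts in cryoinjured and from 23610924 to 27994535 in uninjured zebrafish, and from 25896418 to 26241176 in cryoinjured and from 19073562 to 31148127 in uninjured platyfish. Zebrafish cryoinjured replicates 2 and 3 stood apart with 16530 and 15976 genes with a count, against 18102 to 18819 in the other zebrafish libraries. Platyfish libraries, counted on another gene table, had 18094 to 18693. Cardiomyocyte markers were abundant, summing to 32240 to 33084 CPM (counts relative to the effective library size) in cryoinjured and 40504 to 43169 CPM in uninjured zebrafish, and to 19824 to 29025 CPM in cryoinjured and 20052 to 25382 CPM in uninjured platyfish. The zebrafish sums did not overlap. Of 6 zebrafish rows tested, myl7 (edgeR adjusted p 0.0321) and 1 row of actc1a (edgeR adjusted p 0.0129) were lower after injury, and DESeq2 also called 2 lower. In platyfish (3 of 5 symbols found) 0 of 3 were called by either method. The part of this in the changes of the family was not tested. Markers of the bulbus arteriosus, an elastin-rich chamber, summed to 2.76 to 4.96 CPM in cryoinjured and 3.17 to 3.63 CPM in uninjured zebrafish (3 of 3 symbols found). In platyfish (2 of 3 found) they summed to 6.12 to 8.64 CPM in cryoinjured and 10.1 to 12.7 CPM in uninjured libraries. The platyfish sum holds mylka and itga8 and not the elastin gene elnb, and platyfish mylka was lower after injury (edgeR adjusted p 0.0419).

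After 7 days, transcripts of the lysyl oxidases were at higher levels in cryoinjured ventricles for the members that passed the test, and none passed as lower. In zebrafish the member that passed was loxl2b (4.41-fold), loxa had the largest fitted change of the family on few reads, and the group differences of loxl1 and loxl2a were smaller than the spread between pools. In platyfish loxa (5.95-fold), loxl2a (4.00-fold) and loxl2b (2.49-fold) rose. The calls of platyfish loxa and loxl2a stood in all 13 alternative fits, and that of platyfish loxl2b in 5 of 13. The call of zebrafish loxl2b stood in 3 of the 6 fits with 1 library removed. No member passed the test of the difference between species.

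**Figure D1:**
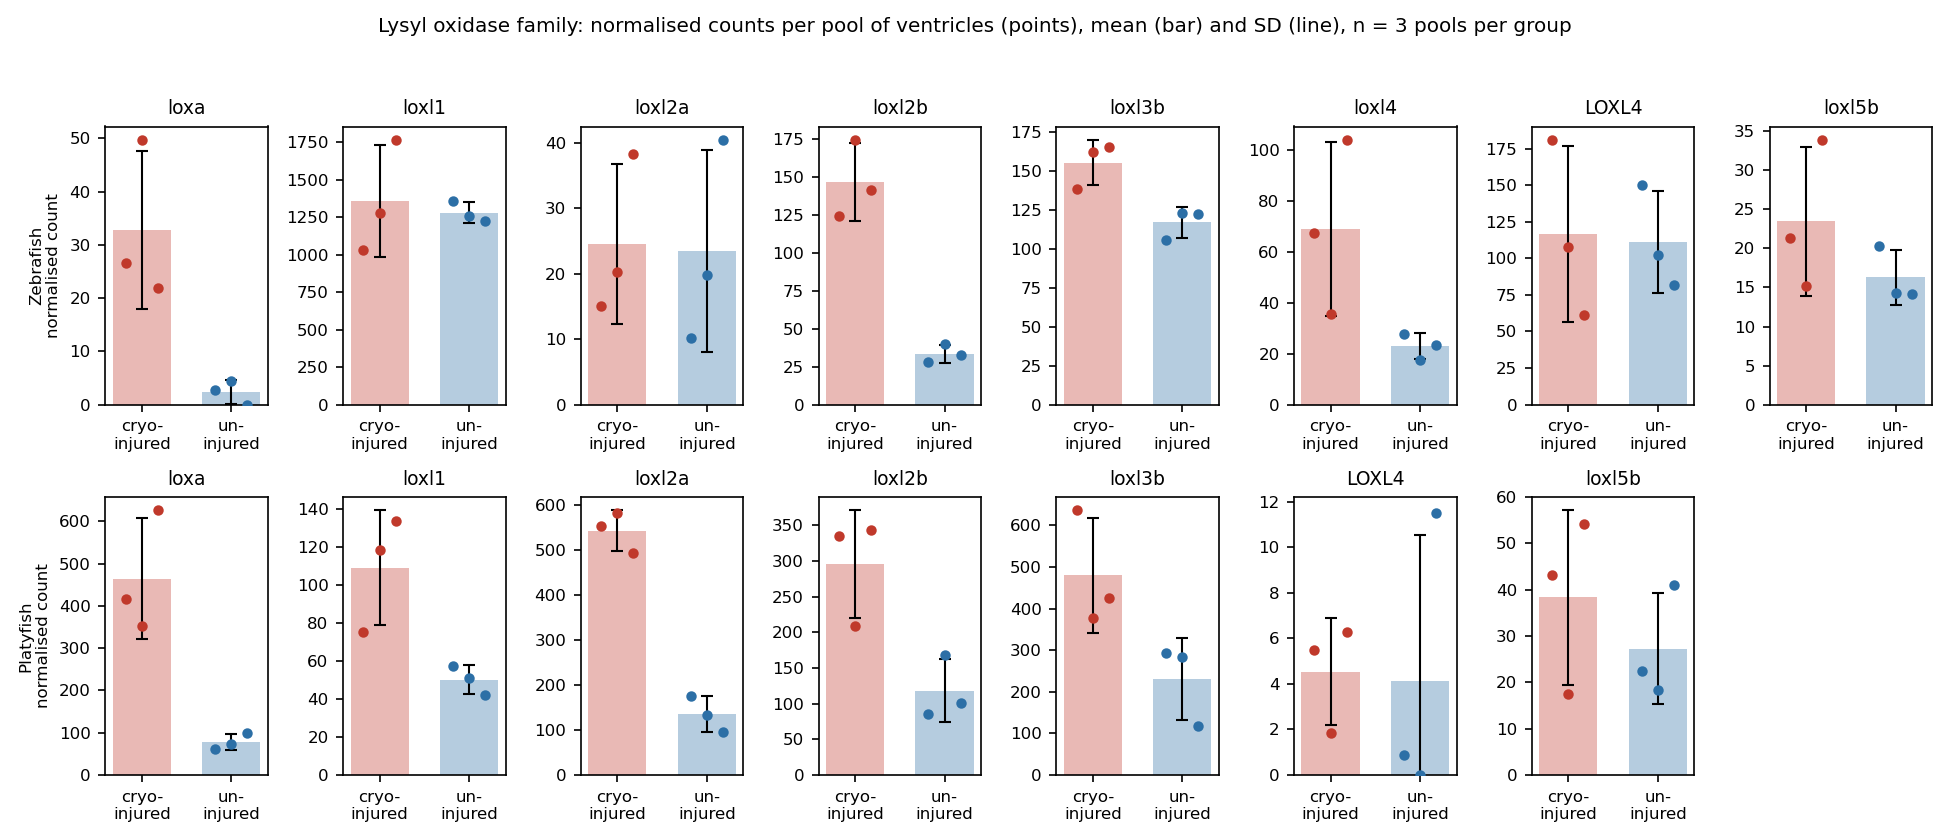
Normalised counts (linear axes from 0, a separate axis for each gene) of the members with a count in more than 3 libraries, in zebrafish (upper row) and platyfish (lower row). Points are pools, bars are group means and lines are the SD over 3 pools, with cryoinjured left of uninjured; the cryoinjured and uninjured points of loxl2b are separate in both species, whereas those of loxl2a are separate in platyfish and overlap in zebrafish.

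Values below are normalised counts, that is, raw counts scaled to a common effective library size within a species, so that levels are compared between groups of a species and not between genes, whose transcript lengths were not used. Each species was tested with edgeR's quasi-likelihood test over all genes that passed its filter on low counts, and a gene was called at a Benjamini-Hochberg adjusted p under 0.05.

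The founding member of the family is lysyl oxidase, whose zebrafish gene loxa (ENSDARG00000003259, chromosome 10) was close to the detection limit without injury. Its raw counts were 30, 49 and 20 in the cryoinjured zebrafish libraries, against 3, 4 and 0 in the uninjured ones. Scaled, these were 26.6, 49.7 and 21.9 normalised counts after injury and 2.78, 4.40 and 0 without it, and each cryoinjured library lay above every uninjured one. The log2 fold change was 3.72 ± 0.87 (SE), with a 95% interval of 1.78 to 5.66 and an edgeR adjusted p of 0.0780, so that the increase did not pass the threshold. It ranked 12 among the log2 fold changes of 13470 genes tested. Zebrafish loxa passed the filter on low counts only through the cryoinjured group, a condition that favours a difference. The call was made by DESeq2 (log2 fold change 3.80, adjusted p 0.00231) and without a filter on low counts (3.70, adjusted p 0.00912). Without the filter the SE was nearly the same (0.88), but the test had 52.0 degrees of freedom, against 10.3 with it. The selection by the filter does not apply to that fit. Its lower adjusted p came with more degrees of freedom, on the same few reads, and not with a more precise estimate. Adjusted p ranged from 0.00231 to 0.274 over the alternatives, leaving aside the fit with 1 cryoinjured library.

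Platyfish loxa (ENSXMAG00000023449, chromosome 8) was measured on more reads and rose. It had 416, 352 and 626 normalised counts in cryoinjured platyfish, against 62.0, 73.6 and 99.8 in uninjured platyfish. The lowest injured pool was thus well above the highest uninjured pool, and the variation between pools was similar in relative terms, with a coefficient of variation of 30.9% after injury and 24.7% without it. The log2 fold change was 2.57 ± 0.27 (SE), a 5.95-fold increase with a 95% interval of 3.87-fold to 9.15-fold, and the edgeR adjusted p was 0.00612. The call stood in all 13 alternatives, 6 of them with a library removed, and the log2 fold changes were 2.29 to 2.77.

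Loxl1, in mice needed for the upkeep of elastic fibres, took the largest share of the family's reads in zebrafish, a share that also depends on transcript length. The zebrafish gene loxl1 (ENSDARG00000054451, chromosome 18) had 1032, 1279 and 1768 normalised counts in cryoinjured libraries, against 1359, 1261 and 1224 in uninjured ones. The injured pools spread on both sides of the uninjured ones, and their coefficient of variation was 27.6%, against 5.46% without injury. It had a log2 fold change of 0.09 ± 0.18 (SE), with a 95% interval of -0.32 to 0.49 and an edgeR adjusted p of 0.860. A change of more than about 1.41-fold upwards lay outside that interval.

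In platyfish loxl1 (ENSXMAG00000025381, chromosome 4) was higher after injury without passing the threshold. It had 75.3, 119 and 134 normalised counts in cryoinjured platyfish and 57.5, 51.1 and 42.2 in uninjured platyfish. The groups did not overlap, although the lowest injured pool stood much nearer to the uninjured pools than the others did. The log2 fold change was 1.11 ± 0.29 (SE), with a 95% interval of 0.46 to 1.76 and an edgeR adjusted p of 0.0663. Scaling by library size only gave a call (1.24, adjusted p 0.0419), as did DESeq2 (1.09, adjusted p 0.0167), and the adjusted p over the alternatives ran between 0.0167 and 0.201.

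Of the class with scavenger receptor domains, the paralogs loxl2a and loxl2b are related to mammalian Loxl2, which cross-links the type IV collagen of basement membranes as well as fibrillar collagen. Platyfish loxl2a (ENSXMAG00000018377, chromosome 20) had 554, 583 and 495 normalised counts in cryoinjured libraries, against 176, 134 and 96.0 in uninjured ones. The injured pools were close together, with a coefficient of variation of 8.30%, and all of them lay far above the uninjured pools. It rose by 2.00 ± 0.22 (SE) on the log2 scale, a 4.00-fold increase with a 95% interval of 2.83-fold to 5.65-fold and an edgeR adjusted p of 0.00684. The call stood in all 13 alternatives, with log2 fold changes of 1.81 to 2.23.

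In zebrafish loxl2a (ENSDARG00000044010, chromosome 10) did not separate the groups. Its normalised counts were 15.1, 20.3 and 38.3 in cryoinjured libraries and 10.2, 19.8 and 40.5 in uninjured ones, so that both groups covered nearly the same range. Its fitted change was 0.06 ± 0.63 (log2, SE; edgeR adjusted p 0.977). With 11 to 40 raw counts per library, the 95% interval ran from -1.34 to 1.46, which includes increases of up to 2.76-fold.

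Zebrafish loxl2b (ENSDARG00000044074, chromosome 5) was the family member that passed the test in that species. It had 124, 175 and 141 normalised counts in cryoinjured zebrafish, against 27.8, 39.6 and 32.4 in uninjured zebrafish. Every injured pool was above every uninjured one, and the coefficient of variation was 17.4% after injury and 17.9% without it. It rose by 2.14 ± 0.30 (SE) on the log2 scale, a 4.41-fold increase with a 95% interval of 2.78-fold to 6.98-fold and an edgeR adjusted p of 0.0110. The direction and size changed little when libraries were left out, with log2 fold changes of 2.00 to 2.27, but the call was lost without cryoinjured replicate 2 (2.00, adjusted p 0.0729), uninjured replicate 1 (2.02, adjusted p 0.0562) or uninjured replicate 3 (2.12, adjusted p 0.0553). With cryoinjured replicate 1 as the sole injured library, an alternative chosen after seeing the data, the log2 fold change was 1.89 with an adjusted p of 0.279. Adjusted p ranged from 9.13e-08 to 0.279 over the alternatives.

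Platyfish loxl2b (ENSXMAG00000010470, chromosome 12) rose as well, with a call at the edge of the threshold. It had 334, 208 and 343 normalised counts in cryoinjured platyfish, against 85.3, 169 and 101 in uninjured platyfish. The groups did not overlap, but the lowest injured and the highest uninjured pool were near each other. It rose by 1.32 ± 0.30 (SE) on the log2 scale, 2.49-fold with a 95% interval of 1.56-fold to 3.99-fold and an edgeR adjusted p of 0.0489. The call was lost without any one of 5 libraries (cryoinjured replicates 1 and 3 and each uninjured replicate), where the log2 fold change was 1.12 to 1.66. It was also lost under limma voom (1.34, adjusted p 0.0530) and with RLE scaling (1.30, adjusted p 0.0508), within a range of adjusted p of 0.00179 to 0.156.

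The loxl2 paralogs were set against each other as the share of loxl2a in their joint reads, a description whose difference between species was not tested. Reads of loxl2a were 10.8%, 10.4% and 21.3% of the loxl2a and loxl2b reads in cryoinjured zebrafish, against 26.8%, 33.3% and 55.6% in uninjured zebrafish. The injured libraries thus all lay below the uninjured ones, on shares whose exact (Clopper-Pearson) 95% intervals were wide, for example 15.3% to 28.4% in cryoinjured replicate 3 and 14.2% to 42.9% in uninjured replicate 1, and cover counting error only. In platyfish the share was 62.4%, 73.7% and 59.0% after injury, against 67.4%, 44.3% and 48.7% without it, and the groups overlapped. The size of these shares depends on the lengths of both transcripts, so that only the direction of a difference between groups of a species is free of it, and shares are not compared between species.

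**Figure D2:**
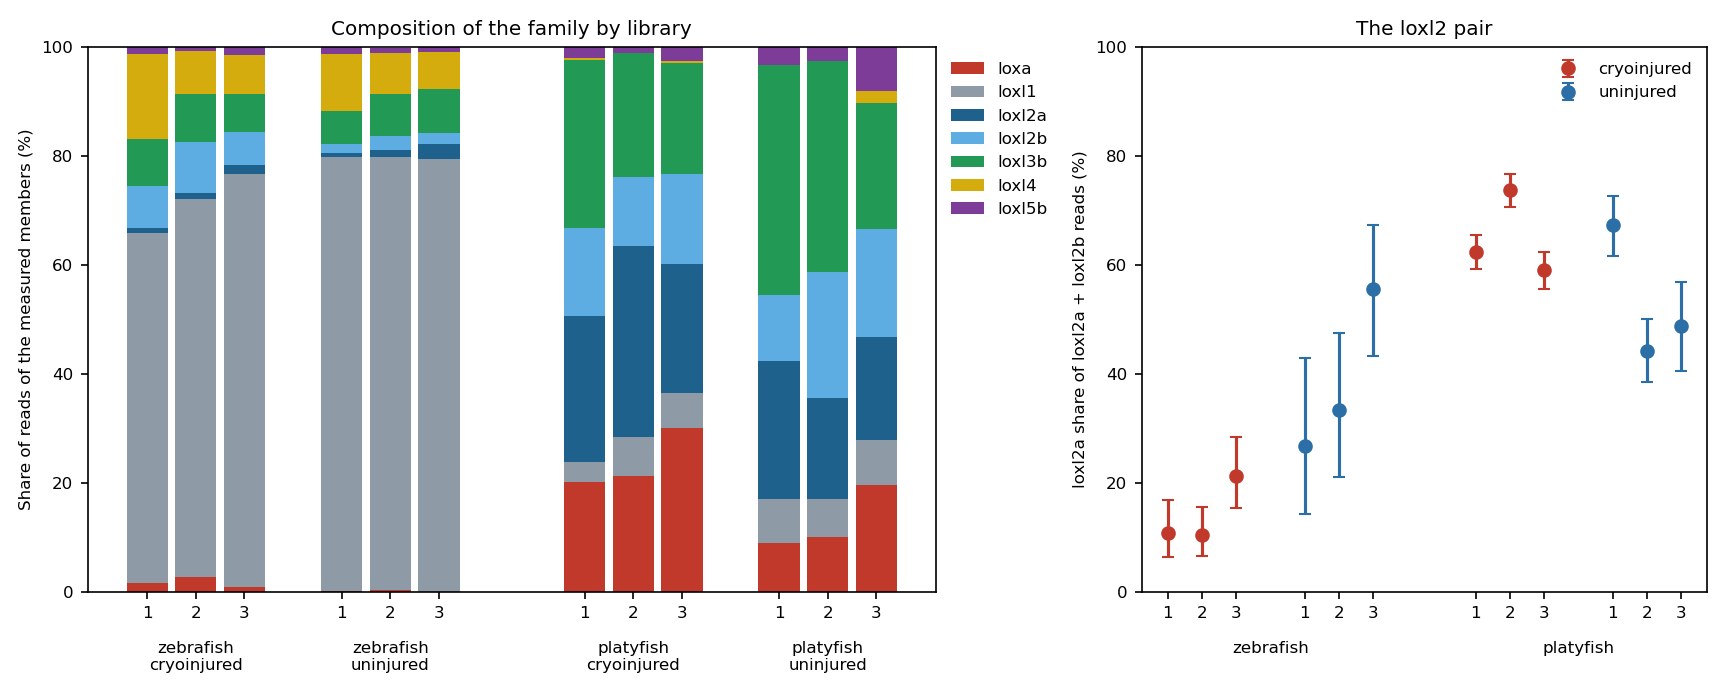
Left, the share (%) of the measured members' reads that each gene took in each library, with loxl4 and LOXL4 together; right, the share of loxl2a in the reads of loxl2a and loxl2b with exact 95% intervals. Cryoinjured libraries stand left of uninjured ones in each species. In zebrafish loxl1 took 64.2% to 75.8% of the measured members' reads in cryoinjured and 79.5% to 79.7% in uninjured libraries. The platyfish loxl1 shares were 3.65% to 7.15% in cryoinjured and 7.01% to 8.29% in uninjured libraries. Such shares depend on transcript lengths and are not compared between species.

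Loxl3 in mammals acts on collagen of cartilage and of the developing palate. Zebrafish loxl3b (ENSDARG00000039563, chromosome 13) had 139, 162 and 165 normalised counts after injury and 106, 123 and 123 without it. The groups were separate by a small margin, with a log2 fold change of 0.41 ± 0.22 (SE), a 95% interval of -0.09 to 0.90 and an edgeR adjusted p of 0.419. The paralog loxl3a (ENSDARG00000076306, chromosome 14) had 3 raw counts in all, 1 and 2 of them in uninjured replicates 1 and 2. It was below the filter on low counts, and without that filter its log2 fold change was -3.22 (edgeR adjusted p 0.592).

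Platyfish loxl3b (ENSXMAG00000018497, chromosome 19) had 636, 377 and 426 normalised counts in cryoinjured libraries and 294, 283 and 118 in uninjured ones. The injured pools lay above the uninjured ones, and uninjured replicate 3, the library with the fewest counts, was the lowest of all. Injury gave a log2 fold change of 1.04 ± 0.35 (SE), with a 95% interval of 0.24 to 1.85 and an edgeR adjusted p of 0.124, which did not pass the threshold. DESeq2 made the call (1.03, adjusted p 0.0326), within a range of adjusted p of 0.0326 to 0.306.

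Loxl4, the remaining member of that class, had 2 rows in each table. In zebrafish, loxl4 (ENSDARG00000025089, chromosome 13) had 67.5, 35.5 and 104 normalised counts after injury, against 27.8, 17.6 and 23.3 without it. The groups did not overlap, and cryoinjured replicate 2 was the injured pool nearest to the uninjured ones. The log2 fold change was 1.58 ± 0.47 (SE), a 2.99-fold difference with a 95% interval of 1.46-fold to 6.15-fold, but the edgeR adjusted p was 0.145; with DESeq2 it was 0.0452 (1.60), within a range of 0.0452 to 0.544. The row named LOXL4 (ENSDARG00000105442, chromosome 11) had 181, 108 and 61.3 normalised counts after injury and 150, 102 and 82.1 without it, with overlapping groups and a log2 fold change of 0.07 ± 0.39 (SE, edgeR adjusted p 0.954). When the counts of these rows were summed, the log2 fold change was 0.47 with an adjusted p of 0.475.

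In platyfish the family was almost without reads of Loxl4. The row LOXL4 (ENSXMAG00000012635, chromosome 5) had 6, 2 and 6 raw counts in cryoinjured and 1, 0 and 9 in uninjured libraries, and the row loxl4 (ENSXMAG00000029052, chromosome 22) had 0 counts in all 6 platyfish libraries. Both were below the filter on low counts; without it LOXL4 had a log2 fold change of 0.22 (edgeR adjusted p 0.941).

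The gene loxl5b belongs to a class named in fish. In zebrafish (ENSDARG00000076904, chromosome 2) it had 21.3, 15.2 and 33.9 normalised counts after injury, against 20.4, 14.3 and 14.2 without it, and in platyfish (ENSXMAG00000000605, chromosome 6) it had 43.2, 17.6 and 54.3 after injury, against 22.4, 18.4 and 41.0 without it. The groups overlapped in both species. The log2 fold changes were 0.52 ± 0.56 in zebrafish (SE, edgeR adjusted p 0.703) and 0.50 ± 0.50 in platyfish (SE, edgeR adjusted p 0.570). With 13 to 52 raw counts per library, the 95% interval was -0.72 to 1.76 for zebrafish and -0.62 to 1.62 for platyfish.

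Counted over the family, 1 of the 8 zebrafish genes tested was called higher and 0 lower, where 0.676% of all 13470 genes tested were called higher and 0.304% lower. DESeq2 called 3 higher (loxa, loxl2b and the loxl4 of chromosome 13), as it did 2.72% of all genes. With cryoinjured replicate 1 as the sole injured library 0 members were called, beside 0.0746% of all genes called higher, and 3 had an unadjusted p under 0.05, beside 6.88% of all genes. At an unadjusted p under 0.05 there were 3 over all libraries, against 15.5% of all genes. In platyfish 3 of the 6 genes tested were called higher and 0 lower, where 2.7% of all 15226 genes tested were called higher and 1.22% lower. DESeq2 called 5 higher, as it did 6.04% of all genes. An unadjusted edgeR p under 0.05 was found for 5, against 24.2% of all genes. The groups did not overlap, with injury higher, for 4 of the 8 zebrafish genes (10.8% of all genes tested) and for 5 of the 6 platyfish genes (16.8%). The median log2 fold change was 0.46 over the 8 zebrafish genes, beside -0.02 over all genes tested, and 1.21 over the 6 platyfish genes, beside 0.01. These counts and medians cover the genes that passed the filter on low counts and not the whole family. Zebrafish loxa, which is in the DESeq2, unadjusted p and non-overlap counts, passed that filter only through the cryoinjured group, which favours a difference. The members were chosen with earlier results of these data known. The shares of all genes therefore stand beside the counts as description and test nothing about the family. Scaling by library size only moved the median of all genes tested to 0.16 in zebrafish and 0.14 in platyfish, and the split of all called genes to 224 higher and 5 lower in zebrafish, against 91 and 41 in the fit reported here, and to 544 and 104 in platyfish, against 411 and 186. The members called were the same under that scaling, with platyfish loxl1 added.

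**Figure D3:**
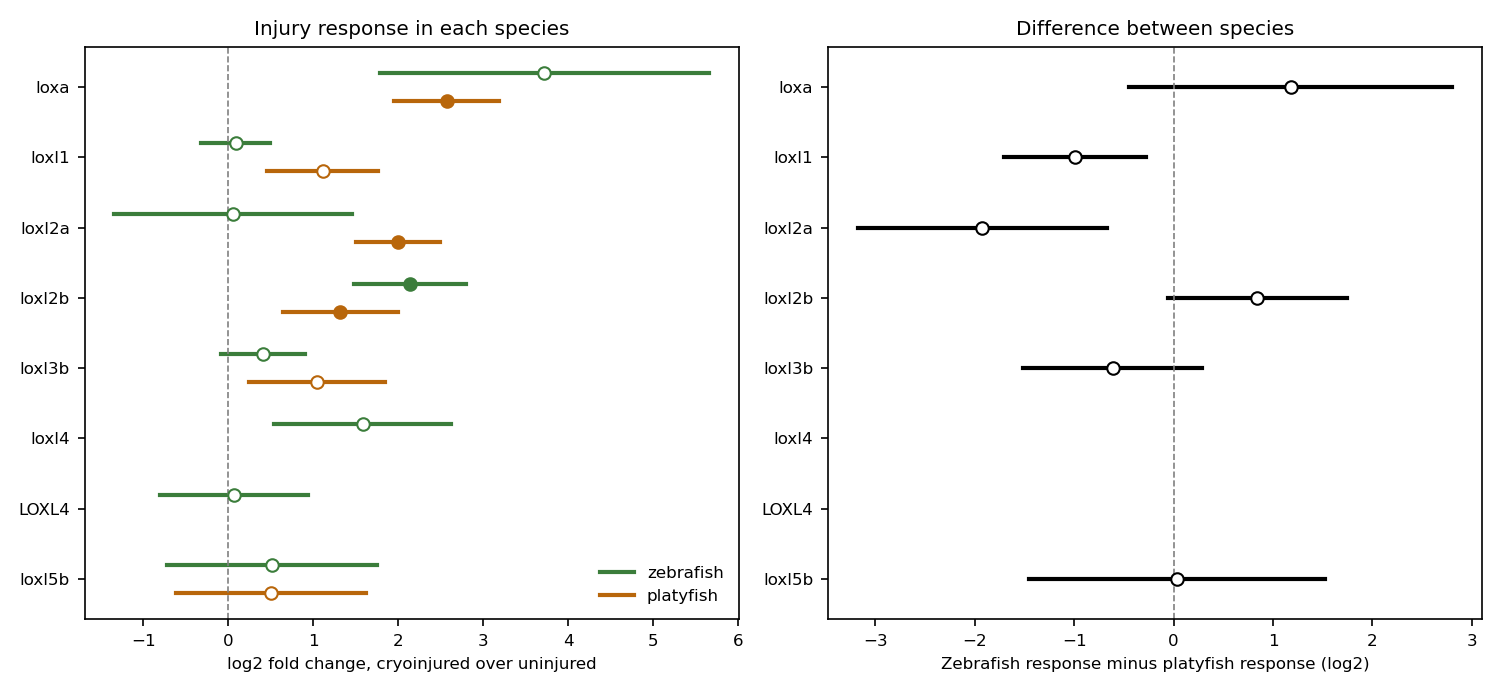
Left, log2 fold changes (cryoinjured over uninjured) of the tested members in zebrafish and platyfish; right, the zebrafish response minus the platyfish response for the 6 genes tested in both. Points are edgeR estimates, lines are 95% intervals and filled points have an adjusted p under 0.05; loxl2a lies at 0.06 in zebrafish and at 2.00 in platyfish, and no point of the right panel is filled.

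Summed over the members, the family's level was 66.2, 76.0 and 96.1 CPM in cryoinjured zebrafish, against 70.2, 65.2 and 63.4 CPM in uninjured zebrafish. The zebrafish groups overlapped, and loxl1 held most of the sum in every zebrafish library. Without loxl1 the sum was 23.4 ± 0.212 CPM after injury and 13.5 ± 0.649 CPM without it (SD, n = 3 each). The small SD of the injured sum does not describe its genes. Among the tested members in it, the coefficient of variation after injury ran from 9.45% (loxl3b) to 51.8% (LOXL4). In platyfish the listed members, loxl1 included, summed to 78.6, 63.2 and 79.4 CPM in cryoinjured libraries, against 26.6, 27.8 and 19.4 CPM in uninjured ones, and every injured library was above every uninjured one. Among rows outside the 9 symbols, platyfish loxl5a (ENSXMAG00000022649) held nearly all reads, with 377, 297 and 374 normalised counts after injury and 531, 416 and 316 without it. Its groups overlapped, and its log2 fold change was -0.27 ± 0.20 (SE, edgeR adjusted p 0.447). With such rows included, the platyfish means were 87.0 CPM after injury and 40.6 CPM without it, against 73.7 CPM after injury and 24.6 CPM without it for the 9 symbols, so that the ratio between the groups was smaller.

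Whether the injury response of a member differed between species was tested for the 6 symbols that occur once in each table and had enough counts in both, within a fit of 8098 matched genes and all 12 libraries. Matching by symbol does not establish orthology. None of the 6 passed an adjusted p under 0.05, where 2.54% of all matched genes did, and 2 had an unadjusted p under 0.05, where 19.4% of all did; DESeq2 called 1, and 7.77% of all matched genes. The largest difference was that of loxl2a, whose zebrafish response was lower than its platyfish response by a log2 difference of -1.92 ± 0.58 (SE), with a 95% interval of -3.18 to -0.67 and an edgeR adjusted p of 0.0974. DESeq2 gave a call (-1.90, adjusted p 0.0258); all 19 alternatives had the same sign, with differences of -2.62 to -1.27 and an adjusted p between 0.0258 and 0.270. The smallest difference in size was that without zebrafish uninjured replicate 3 (-1.27, adjusted p 0.270). For loxl1 the difference was -0.997 ± 0.33 (SE), also with a more positive response in platyfish, with a 95% interval of -1.71 to -0.28, an adjusted p of 0.120 and the same sign in all 19 alternatives.

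For the other 4 genes the intervals included 0. The response of loxl2b was more positive in zebrafish by 0.84 ± 0.42 (SE) on the log2 scale, with a 95% interval of -0.06 to 1.74 and an edgeR adjusted p of 0.290. For loxa the difference was 1.18 ± 0.75 (SE) in the same direction, with an interval of -0.45 to 2.80. The difference for loxl3b was -0.61 (interval -1.52 to 0.29) and that for loxl5b was 0.03 (interval -1.46 to 1.53).

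Genes that act around the lysyl oxidases were counted from lists of their substrates, partners and supply. These lists were chosen with earlier results of these data known, so that their counts are description and test nothing about the lists. Of all genes tested, edgeR called 0.676% higher in zebrafish and 2.7% in platyfish, and DESeq2 called 2.72% and 6.04% higher. An unadjusted edgeR p under 0.05, in either direction, was found for 15.5% of all genes in zebrafish and 24.2% in platyfish. Among the fibrillar collagens, the main substrates, 2 of 7 tested genes passed as higher in zebrafish, col1a1b (2.80-fold) and col1a2 (2.52-fold). DESeq2 called 4 of the 7 higher in zebrafish, and 5 were higher at an unadjusted edgeR p under 0.05. Zebrafish col1a1a (2.80-fold, edgeR adjusted p 0.0861) and col5a1 (1.72-fold, edgeR adjusted p 0.0629) missed the threshold. In platyfish 6 of 7 passed, and they were col1a2 (14.4-fold), col1a1a (13.4-fold), col1a1b (11.7-fold), col5a2a (6.84-fold), col5a1 (3.08-fold) and col11a1b, which had 52.7 ± 36.3 normalised counts after injury and 0.299 ± 0.518 without it (SD, n = 3 each). Platyfish col11a1b passed the filter on low counts only through the cryoinjured group, which favours a difference. Of 6 collagens tested for the difference, 4 passed with a more positive response in platyfish, as 1.32% of all matched genes did (col1a1a, col1a1b, col1a2 and col5a2a, with log2 differences of -2.62 to -2.04). By normalised counts, not corrected for transcript length here or in the lists that follow, the most abundant collagen that missed the threshold was col5a2a in zebrafish, with 1442 ± 150 normalised counts after injury and 1315 ± 27.6 without it (SD, n = 3 each). In platyfish it was col5a3a (edgeR adjusted p 0.628).

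Proteins that process lysyl oxidase or bring it to its substrate include the procollagen C-proteinases, their enhancers, fibronectin, periostin and thrombospondin. In zebrafish 6 of 11 tested genes of this list were higher, namely postnb (24.7-fold), fn1b (6.97-fold), fn1a (6.72-fold), thbs1b (2.97-fold), sparc (2.93-fold) and thbs1a (2.42-fold). DESeq2 called 7 of the 11 higher in each species. At an unadjusted edgeR p under 0.05, 9 were higher in zebrafish and 7 in platyfish. The gene bmp1a, which encodes the proteinase that cleaves the lysyl oxidase proenzyme, had a log2 fold change of 0.73 ± 0.21 (SE) in zebrafish with an edgeR adjusted p of 0.137. In platyfish 6 of 11 were also higher: lum, fn1b (5.56-fold), the proteinase enhancer pcolcea (4.75-fold), thbs1b (2.77-fold), postna (2.77-fold) and sparc (2.34-fold). Platyfish lum, a collagen-binding proteoglycan, had 117 ± 84.9 normalised counts after injury and 3.32 ± 3.10 without it (SD, n = 3 each), and it passed the filter on low counts only through the cryoinjured group. Zebrafish lum had 45.5 ± 25.8 normalised counts after injury and 2.98 ± 3.68 without it (SD, n = 3 each). It missed the threshold (edgeR adjusted p 0.0807), as did platyfish thbs1a (1.83-fold, edgeR adjusted p 0.0625). For bmp1a in platyfish the log2 fold change was 0.05 ± 0.17 (SE, edgeR adjusted p 0.882). The fn1a response was more positive in zebrafish, with a log2 difference of 2.28 and an edgeR adjusted p of 0.0322, and it was the only 1 of 10 genes of the list to pass the test of the difference. The most abundant genes that missed the threshold were pcolcea in zebrafish (649 ± 284 normalised counts after injury and 405 ± 294 without it, SD, n = 3 each; edgeR adjusted p 0.619) and fn1a in platyfish (edgeR adjusted p 0.323).

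Hydroxylation of lysine precedes cross-linking and sets the kind of cross-link that forms. The lysyl hydroxylase plod2, which in mammals acts on the collagen telopeptides, had 883 ± 360 normalised counts in cryoinjured and 137 ± 13.4 in uninjured platyfish (SD, n = 3 each). It rose 6.44-fold in platyfish (log2 fold change 2.69 ± 0.31 SE, edgeR adjusted p 0.00989). Among the 10 tested genes of its list plod2 was the 1 called by edgeR, while DESeq2 called 3 higher. At an unadjusted edgeR p under 0.05, 6 of the 10 were higher. Platyfish fkbp10b (2.14-fold, edgeR adjusted p 0.0857) and fkbp10a (1.76-fold, edgeR adjusted p 0.0980) missed the threshold. In zebrafish plod2 had a log2 fold change of -0.08 ± 0.18 (SE, edgeR adjusted p 0.870), and the difference between species was -2.75 ± 0.38 (SE, edgeR adjusted p 0.00541). Of 8 genes of the list tested for the difference, edgeR called 1 and DESeq2 called 3, all with a more positive response in platyfish. The zebrafish gene of this list that rose was serpinh1b, a collagen chaperone (2.37-fold, edgeR adjusted p 0.0258), 1 of 9 tested. The most abundant gene of the list without a call was ppib in both species (edgeR adjusted p 0.444 in zebrafish and 0.136 in platyfish).

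Among elastic fibre genes, mfap2 (6.41-fold) and mfap5 (2.67-fold) were higher in zebrafish out of 10 tested, and mfap2, mfap5 (4.41-fold) and efemp1 (2.41-fold) were higher in platyfish out of 13. DESeq2 called 2 higher in zebrafish and 5 in platyfish. At an unadjusted edgeR p under 0.05, 2 were higher and 1 lower in zebrafish, and 6 were higher and 0 lower in platyfish. In platyfish 1 row of fbln1 (6.21-fold, edgeR adjusted p 0.0672) and fbln2 (1.79-fold, edgeR adjusted p 0.0754) missed the threshold. Platyfish mfap2 had 180 ± 145 normalised counts after injury and 8.19 ± 2.51 without it (SD, n = 3 each), and it too passed the filter only through the cryoinjured group. The most abundant without a call were efemp2a in zebrafish (edgeR adjusted p 0.946) and fbn1 in platyfish (edgeR adjusted p 0.771). No gene of copper supply passed in either species (0 of 6 in each by edgeR and by DESeq2, with 2 in each at an unadjusted p under 0.05), and the copper transporter atp7a had log2 fold changes of 0.33 ± 0.15 in zebrafish, where it was the most abundant of the list, and -0.11 ± 0.15 in platyfish (SE). In platyfish the most abundant was the metallothionein mt2, with -0.51 ± 0.18 (SE, edgeR adjusted p 0.139). Of the upstream signals, ccn2a rose in platyfish (2.54-fold, edgeR adjusted p 0.0330), 1 of 10 tested. DESeq2 also called 1 in platyfish, and 3 were higher and 2 lower there at an unadjusted edgeR p under 0.05. In zebrafish 0 of 10 passed by edgeR or DESeq2, with 2 at an unadjusted p under 0.05. The most abundant upstream genes without a call were the hypoxia-inducible factor gene hif1ab in zebrafish (edgeR adjusted p 0.518) and hif1al in platyfish (edgeR adjusted p 0.173). The copper amine oxidase aoc2, outside the family, passed in neither species (edgeR adjusted p 0.901 in zebrafish and 0.418 in platyfish; 0 at an unadjusted p under 0.05 and 0 by DESeq2 in each).

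Leaving out single libraries ended many of the calls of these listed genes. In zebrafish 6 of the 11 called genes (col1a1b, col1a2, fn1b, thbs1b, sparc and postnb) kept the call whichever of the 6 libraries was removed; of the others, mfap2 kept it in 3, mfap5, fn1a and serpinh1b in 2 and thbs1a in 1. With cryoinjured replicate 1 as the sole injured library, fn1b and postnb kept the call. In platyfish 3 of the 17 called genes (col1a2, col1a1a and col1a1b) kept it in all 6, mfap5 and plod2 lost it only without uninjured replicate 1, postna lost it without uninjured replicate 1 or 2, and efemp1 lost it in every such fit. The remaining 10 platyfish genes kept it in 1 to 3 of the 6, and all 10 lost it without uninjured replicate 1. Such losses were not particular to the listed genes. Over all platyfish genes, 411 were called higher, against 21 without uninjured replicate 1 and 42 without cryoinjured replicate 3. There were 53 without uninjured replicate 2 and 572 without uninjured replicate 3. Of the 6 called differences between species, col1a1b, col1a2, col5a2a and plod2 kept the call in all 12 fits, col1a1a in 8 and fn1a in 7, and with 1 zebrafish cryoinjured library plod2 alone kept it.

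**Figure D4:**
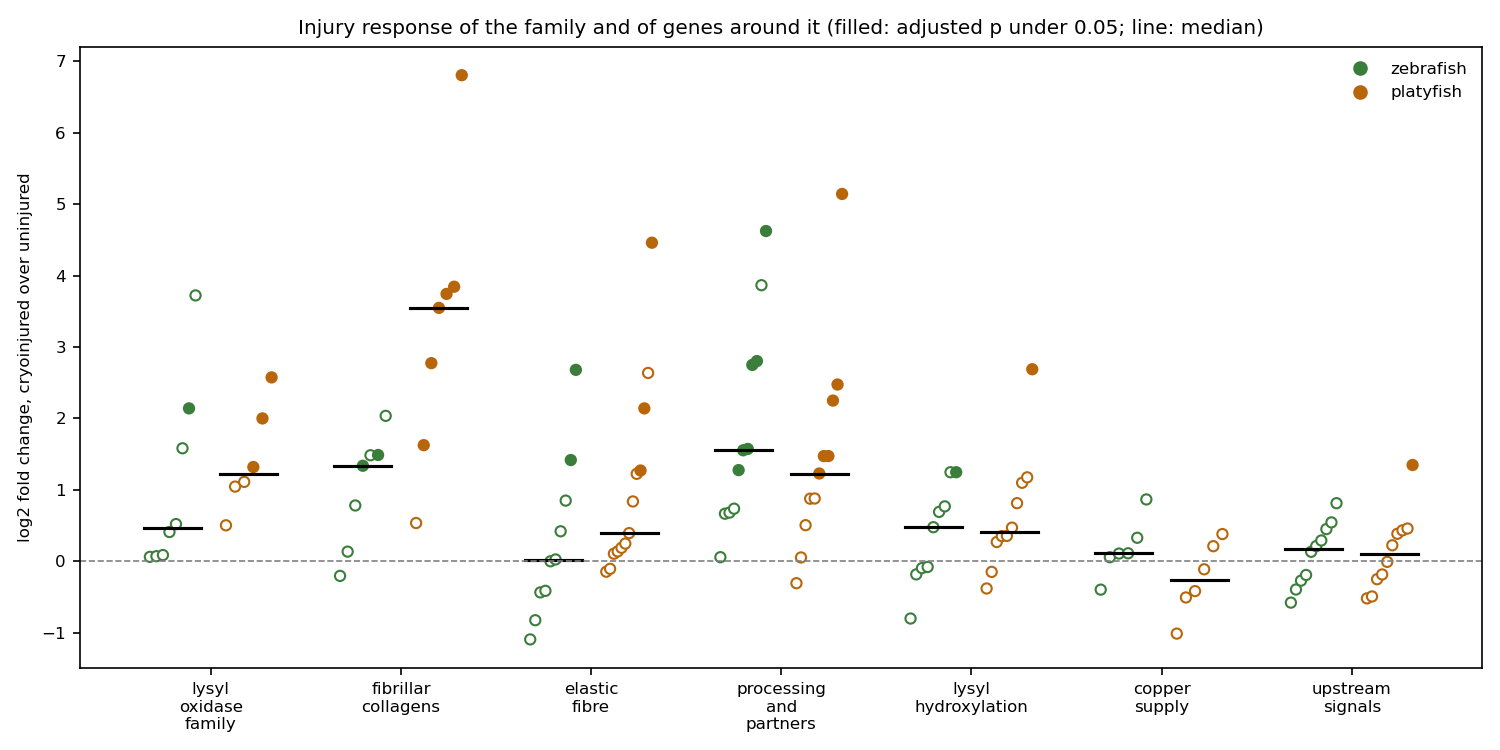
Log2 fold changes (cryoinjured over uninjured) of the tested lysyl oxidase family genes and of the listed genes around them, in zebrafish (left of each pair) and platyfish (right). Each point is a gene, filled where the edgeR adjusted p was under 0.05, and the line is the median; the median over fibrillar collagens was 1.34 in zebrafish and 3.55 in platyfish, and that over copper supply genes 0.11 and -0.27.

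Summed markers of other cell types differed between the groups in several cases, and their part in the changes of the family was not tested. Fibroblast and epicardial markers (7 of 7 symbols found in each species) summed to 82.5 to 97.7 CPM in cryoinjured and 62.7 to 82.6 CPM in uninjured zebrafish, with 0 of 5 tested genes called by edgeR, 1 by DESeq2 and 2 at an unadjusted p under 0.05. Zebrafish dcn held most of that sum, with 66.0 to 81.2 CPM after injury and 51.1 to 74.3 CPM without it. Zebrafish wt1a and wt1b were below the filter on low counts and were not tested. There wt1b had 0.418 to 1.08 CPM after injury and 0.0834 to 0.136 CPM without it. The wt1a range was 0 to 0.183 CPM after injury and 0.136 to 0.229 CPM without it. In platyfish the fibroblast and epicardial markers summed to 154 to 215 CPM after injury and 116 to 129 CPM without it. There edgeR called 2 of 7 tested genes higher, wt1a and wt1b, while DESeq2 called 4, and 4 were higher at an unadjusted edgeR p under 0.05. The other log2 fold changes in platyfish were 1.05 for dcn, 0.82 for tbx18, 0.49 for pdgfrb, 0.22 for tcf21 and -0.18 for pdgfra. Smooth muscle markers (4 of 4 found) summed to 63.5 to 81.6 CPM in cryoinjured and 19.1 to 24.8 CPM in uninjured zebrafish, where tagln rose, and to 182 to 379 CPM after injury and 82.2 to 206 CPM without it in platyfish, where myh11a rose. Each was the 1 smooth muscle gene of 4 tested that edgeR called, while DESeq2 called 2 higher in zebrafish and 3 in platyfish. The platyfish sums overlapped, and myh11a was a small part of them, with 5.84 to 9.23 CPM after injury. Their largest part was tagln, with 93.8 to 230 CPM after injury (edgeR adjusted p 0.326). Macrophage markers (7 of 7 found in zebrafish, 5 of 7 in platyfish) summed to 101 to 158 CPM in cryoinjured and 47.7 to 59.9 CPM in uninjured zebrafish. The scavenger receptor gene marco held most of that sum. It was the 1 called of 7 tested rows, which were marco, csf1ra and rows of mfap4. Zebrafish mpeg1.1, c1qa, c1qb and c1qc were below the filter on low counts. In platyfish the macrophage markers summed to 211 to 277 CPM after injury and 163 to 303 CPM without it. There 0 of 5 tested rows were called by edgeR or DESeq2. The zebrafish macrophage receptor gene csf1ra had a log2 fold change of -0.005 (edgeR adjusted p 0.996). Endothelial markers summed to 537 to 684 CPM in cryoinjured and 459 to 507 CPM in uninjured zebrafish, with 0 of 5 genes called by edgeR or DESeq2 and 3 at an unadjusted p under 0.05, and to 575 to 714 CPM after injury and 697 to 838 CPM without it in platyfish. Liver markers summed to 109 to 232 CPM in cryoinjured and 11.1 to 17.0 CPM in uninjured zebrafish, and nearly all of that sum was 1 gene, tfa, with 109, 149 and 231 CPM after injury and 14.3, 16.9 and 10.9 CPM without it. The other 5 liver markers had 0 to 0.631 CPM in each zebrafish library, and apoa1a was at 0 throughout. In platyfish the liver markers summed to 3.85 to 6.60 CPM after injury and 4.34 to 5.45 CPM without it. The summed ranges of the groups overlapped in both species for the marker lists of atrium, neutrophils, red blood cells and cartilage or bone-like matrix.

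The genes most like a family member in their profile over libraries were sought for the member with the highest mean CPM in each species, by the root mean square difference of centred log2(CPM + 0.5) over the 6 libraries. For zebrafish loxl1 the nearest of 13368 genes were commd3 (0.0416), fzr1a (0.0451), CABZ01061508.1 (0.0549), timm29 (0.0691) and cdkn2aip (0.0740), beside a median over all genes of 0.387. For platyfish loxl3b the nearest of 12083 genes were si:busm1-57f23.1 (0.159), bicc2 (0.160), p4ha2 (0.170), baiap2l1a (0.219) and sparc (0.222), beside a median of 0.733. Of these 10 genes, sparc, a collagen-binding matricellular protein, passed the test of the injury response in platyfish (edgeR adjusted p 0.0388).

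In the authors' deposited table of DESeq2 results, which gives log2 fold changes smaller in size than the estimates above, zebrafish loxl2b had 1.66 (adjusted p 4.71e-07), and platyfish loxa, loxl2a, loxl2b, loxl1 and loxl3b had 2.20, 1.78, 1.09, 0.90 and 0.84. The authors' deposited table gives adjusted p values of 4.21e-15, 7.09e-13, 0.00180, 0.0204 and 0.0318 for those 5 platyfish genes. For zebrafish loxl4 (chromosome 13) the authors' deposited table gives 0.98 with an adjusted p of 0.0502, and for zebrafish loxa it gives 1.28 without an adjusted p.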

How the data were processed

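Per the labels' protocols, Trizol RNA went into strand-specific libraries after poly(A) selection. Per the submitters' processing notes, the tools were FastQC, HISAT2 2.2.1, featureCounts 2.0.1 and DESeq2 1.38.3, and the build named for the samples of both species is GRCz11, a zebrafish assembly; the platyfish build, the annotation releases and the strand setting are not given in the sources used here. The authors deposited raw counts per gene, used unchanged, and tables of normalised counts (a signal: raw counts divided by size factors, by the authors), log2 fold changes and adjusted p-values; the deposited table's values are quoted only where named. For platyfish after cryoinjury the treatment label mentions zebrafish, but their titles, organism field and library names say platyfish, which was used.

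Zebrafish and platyfish had separate fits in edgeR 4.0.16 (R 4.3.3): filterByExpr, TMM, robust glmQLFit and glmQLFTest, Benjamini-Hochberg adjustment. SE is the absolute log2 fold change over the square root of F, and intervals use the test's degrees of freedom. The difference used 4 group means over 12 libraries, with TMM within species. Alternatives were DESeq2 1.42.0, limma voom 3.58.1, other scalings, no filter, summed copies, the replicate block and leaving out libraries. Depth is given with the results; intervals on shares of counts cover counting error only, since reads carry no molecular identifiers. The fits were also run on simulated counts, with a log2 change of 1.5 in 200 genes and a single dispersion for all genes. The changed genes were not low in counts and no library deviated, so that the outcome does not carry over to these data. Libraries of the same group differed beyond counting noise.

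The family members, the gene lists around them and the tests were chosen with earlier results of these data known. Named genes were all members, the called genes of each list, the most abundant gene without a call, and the 5 genes most like the most abundant member. Figures used matplotlib 3.10.9.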

Additional observations from a re-analysis of the deposited data

How the results depend on the processing

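The direction held for every member called here (zebrafish loxl2b; platyfish loxa, loxl2a and loxl2b) under all alternatives run. Over 20 member results and 302 alternatives, 268 kept direction and side of the threshold, 12 fell below it, 7 passed it and 15 changed sign, and all sign changes were of uncalled results. The sign changes were zebrafish LOXL4 of chromosome 11 with the replicate block (-0.011), without cryoinjured replicate 1 (-0.41) and without uninjured replicate 3 (-0.11), against up to 0.37 without other libraries; zebrafish loxl1 without cryoinjured replicate 3 (-0.15, against up to 0.24 without other libraries) and with 1 cryoinjured library (-0.33); zebrafish loxl2a without cryoinjured replicate 3 (-0.41), uninjured replicate 1 (-0.31) or uninjured replicate 2 (-0.05; up to 0.70 without other libraries) and with 1 cryoinjured library (-0.65); and the loxl5b difference between species without zebrafish cryoinjured replicate 3 (-0.32), zebrafish uninjured replicates 2 (-0.04) or 3 (-0.06), platyfish cryoinjured replicate 2 (-0.31) or platyfish uninjured replicate 3 (-0.37; up to 0.38 without other libraries), and with 1 zebrafish cryoinjured library (-0.12). The fit with 1 cryoinjured library, number 1, was chosen after seeing the data, and its lone library is assumed to vary like the other group. The counts of called genes also moved, and the cause was not tested. Zebrafish had 91 genes called higher and 41 lower; DESeq2 gave 367 and 227, library size only 224 and 5, no filter on low counts 270 and 247, and 1 cryoinjured library 11 and 0 (1015 at an unadjusted p under 0.05), while leaving out 1 library gave 27 (without cryoinjured replicate 2) to 165 (without cryoinjured replicate 1) higher and 1 (without uninjured replicate 3) to 123 (without cryoinjured replicate 1) lower. Platyfish had 411 and 186; DESeq2 gave 920 and 770, library size only 104 lower, and leaving out 1 library 21 higher and 6 lower (without uninjured replicate 1) to 572 and 435 (without uninjured replicate 3). For the difference, 99 genes responded more positively in zebrafish and 107 in platyfish; DESeq2 gave 338 and 291, library size only 51 for platyfish, 1 zebrafish cryoinjured library 8 and 12, and leaving out 1 library 36 (without platyfish uninjured replicate 2) to 186 (without zebrafish cryoinjured replicate 1) for zebrafish and 34 (without platyfish uninjured replicate 1 or 2) to 282 (without zebrafish cryoinjured replicate 1) for platyfish. Same-numbered libraries did not deviate together in all pairs (correlations of 0.134, 0.140 and 0.0123 in zebrafish and -0.0854, -0.184 and -0.178 in platyfish), and zebrafish cryoinjured replicate 3 correlated best with uninjured replicate 2 (0.0536), so that the numbers were not taken as pairs. With the replicate block, zebrafish had 65 genes lower, platyfish 203 higher and 53 lower, and the difference 40 for zebrafish and 41 for platyfish; platyfish loxl2b missed the threshold under the block (1.34, adjusted p 0.106), and no other member's call changed. Counting all rows named as the family gave summed levels of 87.0 CPM in cryoinjured and 40.6 CPM in uninjured platyfish. Zebrafish loxl3a and both platyfish loxl4 rows were below the filter on low counts, and loxl4 copies summed could not be tested for the difference at this depth.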
